A study of Mus musculus with 4 samples.

Results

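The variable segments of the T cell receptor alpha and beta genes are described here. They were taken as all genes of the deposited count table whose symbol begins with Trav or Trbv followed by a number, which gave 105 of 14721 genes, 81 Trav and 24 Trbv. Per the RefSeq annotation of GRCm38.p6, the build also called mm10, the Trav segments lie between positions 52427967 and 53977678 of chromosome 14 and the Trbv segments between 40891296 and 41558371 of chromosome 6. By the number in their symbols they form 22 Trav and 21 Trbv families. RefSeq marks 100 of them as variable segments and 5 as pseudogenes of such segments, Trbv29 among them.

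A developing T cell joins a variable segment to a joining segment, with a diversity segment between them in the beta chain, and cuts away or inverts the DNA in between. The joined variable segment encodes the first part of the receptor chain, including loops that touch the MHC molecule, so a mature T cell normally transcribes a single beta segment and an alpha segment or a pair of them. The use of segments differs between CD4 and CD8 T cells because the segments help to read class II or class I MHC molecules and because T cells bearing some of them are deleted by endogenous superantigens. In a receptor transgenic mouse without the RAG1 recombinase the transgenic segments are the ones expected to be rearranged.

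Transcripts and receptor chains were read from single T cells of mice that carried B16F10 melanoma, a mouse skin cancer line grown under the skin. The mice received cyclophosphamide at 250 mg/kg, then CD4 T cells bearing the TRP1 receptor, which recognises a melanocyte protein, and T cells were sorted on day 11 after the transfer, per the labels' protocols. All samples share the strain label "RAG1- BW TRP-1 TCR" and the treatment label "untreated", although the protocols give cyclophosphamide and cell transfer. Lymph node Cd4 cells used 23 Trbv segments, which such a strain is not expected to rearrange, so the strain label does not describe these cells. The tumor samples are titled transgenic and endogenous and the lymph node samples endogenous. Each tissue gave 1 RNA library and 1 receptor library, for which 8100 cells entered preparation, so no value has a replicate, no test between animals was possible, and every interval covers counting error only. The labels do not say whether cells of several animals were pooled.

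The lymph node library held 4988 cells, of which the authors labelled 1873 Cd4, 2788 Cd8 and 321 Treg, at median depths of 4763, 6306 and 5225 UMIs per cell. The tumor library held 5570 cells, of which 2693 were labelled Tdp, 2451 Cd4, 406 Tcell and 19 Treg, with medians of 6633, 5533, 2040 and 4766 UMIs. The labels do not spell out Tdp. In tumor, Cd4 UMIs were seen in 78.5% of Tdp and 84.4% of Cd4 cells, Cd8a UMIs in 90.9% and 2.82%, and Cd8b1 UMIs in 94.7% and 9.83%. The labels were checked against their markers: Cd4 UMIs were seen in 50.7% of lymph node Cd4 cells and 4.59% of Cd8 cells, Cd8a in 1.39% and 86.3%, and Foxp3 in 73.8% of Treg cells against 1.17% of Cd4 cells. The Treg label also held Cd8a UMIs in 17.1% of its cells. Among B cell markers Cd79b reached 28.4 CPM in Treg, 19.3 in Cd8 and 0.445 in Cd4 cells, while Cd79a stayed at or below 2.10 CPM and Ms4a1 at or below 0.525 CPM, and the macrophage and melanoma lists stayed at or below 1.58 CPM in these labels. The libraries shared 36 cell barcodes.

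Of the 105 segments, 101 had UMIs in the lymph node library and 19 in the tumor library. In tumor 86 segments were listed at 0, 67 Trav and 19 Trbv. In lymph node Trav9d-2, Trav9d-3, Trav9n-2 and Trav9n-3 were listed at 0. Of all genes 46 were seen in exactly 1 tumor cell, 170 in 2 and 363 in 3. Of the members these were 0, 4 and 1. In lymph node the counts were 331, 385 and 419 genes, and 0, 0 and 2 members. Whether genes seen in few cells of a library were set to 0 was not tested, so a listed 0 may hide rare cells. A cell was said to use the segment with the most UMIs of its locus, when it had 2 or more UMIs and more than any other segment. Among lymph node cells a Trbv segment could be called in 84.1% of Cd4, 87.0% of Cd8 and 85.7% of Treg cells. A Trav segment could be called in 48.5%, 43.8% and 46.7%. The called Trbv segment had a median of 6, 7 and 7 UMIs per cell, and the called Trav segment a median of 3 UMIs in each label. Use of alpha segments therefore rests on fewer cells and fewer molecules.

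The called segments were read against the receptor library, which was sequenced apart and gives the CDR3, the loop that begins inside the variable segment. Among lymph node cells with a single beta chain, 99.6% of 244 Trbv1 users had a CDR3 that starts Cys-Thr-Cys and 97.8% of 138 Trbv20 users one that starts Cys-Gly-Ala. Of 216 Trbv31 users 92.1% started with Cys-Ala-Trp, and 98.5% of the 202 cells with that start and a called segment used Trbv31. Of 211 Trbv29 users 98.6% (exact Clopper-Pearson 95% interval 95.9% to 99.7%) started with Cys-Ala-Ser, the start of most segments, although RefSeq lists Trbv29 as a pseudogene. Alpha segments matched their starts less closely. Trav21-dv12 users had Cys-Ile-Leu in 80.0% of 20 cells, and all 16 cells with that start and a called segment used it. Among the near-identical copies of Trav13, Trav13n-1 users had Cys-Ala-Met in 67.7% of 31 cells.

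Beta segments were used very unequally. In lymph node Cd4 cells the 5 most used, Trbv13-2 (12.1%), Trbv3 (10.6%), Trbv31 (9.96%), Trbv19 (9.20%) and Trbv1 (7.61%), took 49.5% of 1576 called cells. In Cd8 cells they were Trbv13-2 (10.8%), Trbv12-1 (8.70%), Trbv29 (8.0%), Trbv13-1 (7.75%) and Trbv19 (7.13%), with 42.4% of 2425 called cells. In Treg cells Trbv12-1 came first (13.8%), followed by Trbv13-2 (9.82%), Trbv3 (9.09%), Trbv31 (6.91%) and Trbv1 (6.55%), with 46.2% of 275 called cells. Trbv13-2 was thus among the 2 most used in all 3 labels, and its share did not differ between Cd8 and Cd4 cells beyond counting error (ratio 0.891, exact conditional 95% interval 0.737 to 1.08). Trbv21, Trbv22, Trbv24 and Trbv30 were each used by fewer than 1% of cells in every label.

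**Figure D1:**
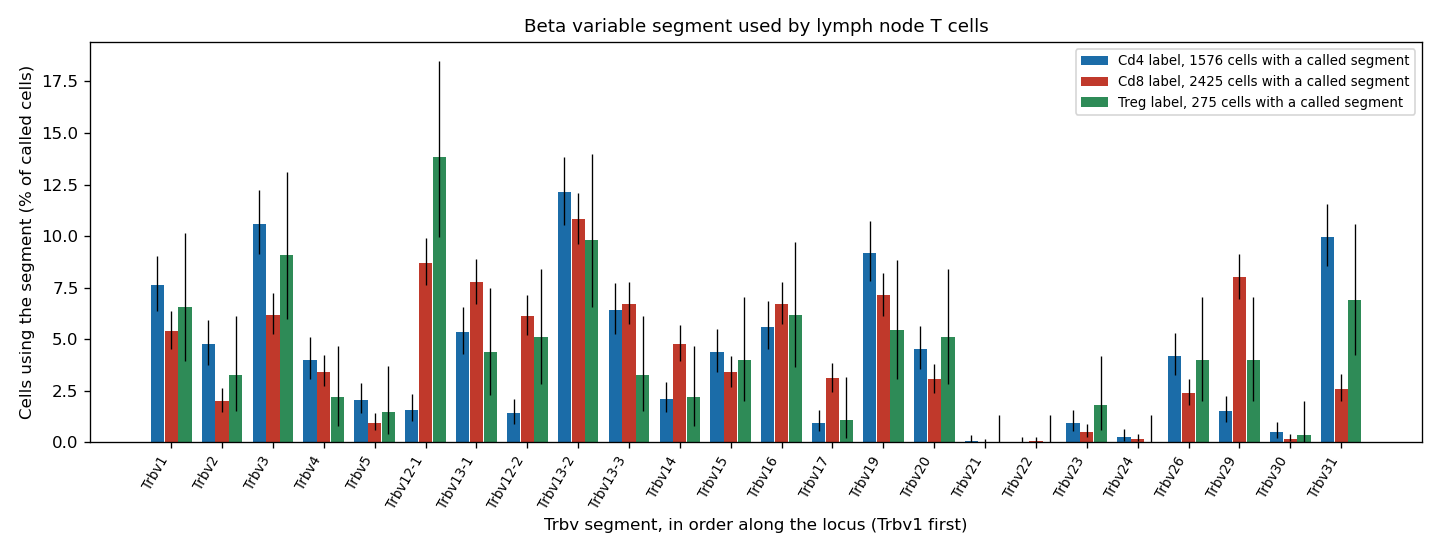
Share of lymph node cells using each Trbv segment (percent of cells with a called segment), with segments in their order along the locus; bars are the Cd4, Cd8 and Treg labels and lines are exact 95% intervals for counting error. Trbv12-1, Trbv12-2 and Trbv29 stand low in Cd4 and high in Cd8 cells, and Trbv31 the other way, at 9.96% of Cd4 and 2.60% of Cd8 cells.

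Cd8 and Cd4 cells of the lymph node differed in many beta segments in both directions. Trbv12-1, Trbv29, Trbv12-2, Trbv17 and Trbv14 were used by a larger share of Cd8 than of Cd4 cells, and Trbv31, Trbv2, Trbv5, Trbv26 and Trbv3 by a smaller one. A segment was counted as higher or lower at 1.5-fold, among segments used by 1% or more of called cells in either label. Over both loci 59 segments could be counted, of which 25.4% were higher and 30.5% lower in Cd8 cells. Of the 24 Trbv segments 19 could be counted, with 5 higher, 5 lower and 9 neither, at a median ratio of 0.856.

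Trbv12-1 was used by 25 of 1576 Cd4 cells (1.59%, 1.03% to 2.33%) and 211 of 2425 Cd8 cells (8.70%, 7.61% to 9.89%), a ratio of 5.49 (3.61 to 8.67). Its near neighbour Trbv12-2 was used by 1.40% of Cd4 and 6.10% of Cd8 cells, a ratio of 4.37 (2.78 to 7.19). With the copies summed, the Trbv12 family took 2.98% of Cd4 cells (2.20% to 3.94%) and 14.8% of Cd8 cells (13.4% to 16.3%). Its ratio of 4.97 (3.66 to 6.89) was the largest of the families counted after that of Trbv29. Trbv29 was used by 24 Cd4 cells (1.52%) and 194 Cd8 cells (8.0%), a ratio of 5.25 (3.43 to 8.40). Trbv17 was used by 0.952% of Cd4 and 3.09% of Cd8 cells (ratio 3.25, 1.85 to 6.09) and Trbv14 by 2.09% and 4.74% (ratio 2.26, 1.53 to 3.44). The intervals of both labels were apart for each of these segments.

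Trbv31, known as Vβ14 in the older naming, showed the widest gap in the other direction. It was used by 157 Cd4 cells (9.96%, 8.53% to 11.5%) and 63 Cd8 cells (2.60%, 2.00% to 3.31%), so that its share was 3.83-fold (2.85 to 5.22) higher in Cd4 cells. It is also the beta segment of the transgenic receptor, but these users carried diverse receptors: the 151 Cd4 users with a receptor call had 150 distinct clonotypes. Trbv2 was 2.40-fold (1.65 to 3.53), Trbv5 2.14-fold (1.21 to 3.83), Trbv26 1.75-fold (1.21 to 2.54) and Trbv3 1.71-fold (1.37 to 2.15) higher in Cd4 cells. The receptor library gave the same order for the start that marks Trbv31: Cys-Ala-Trp was found in 8.61% of Cd4 cells (7.31% to 10.1%) and 2.02% of Cd8 cells (1.5% to 2.66%) with a single beta chain.

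The shares were not carried by expanded clones. Among the segments with 10 or more users with a receptor call in a label, no clonotype held more than 3 users. The 210 Cd8 users of Trbv12-1 with a call had 209 clonotypes and the 192 of Trbv29 had 190.

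The summed level of a segment, its UMIs scaled to the total UMIs of the label (in CPM), combines how many cells use it with how many transcripts each makes. Among all genes with 20 CPM or more in either label, 4.37% were at least 1.5-fold higher and 4.81% lower in Cd8 than in Cd4 cells on the scale of CPM plus 1. Of the 18 Trbv segments at that level 5 were higher and 8 lower, with a median log2 ratio of -0.35 against -0.07 over all 4557 genes. The 5 were those with the larger share of Cd8 cells. Trbv12-1 stood at 82.1 CPM in Cd8 and 16.1 CPM in Cd4 cells (log2 ratio 2.28), Trbv29 at 124 and 27.4 CPM (2.14), and Trbv31 at 35.9 and 138 CPM (-1.92). Of the 6 Trav segments at that level none was higher and 4 were lower. All Trav UMIs together made up 0.0541% of the UMIs of Cd4 and 0.0356% of those of Cd8 cells. For Trbv these shares were 0.148% and 0.129%. A lower level of a Trav segment in Cd8 cells therefore need not mean a smaller share of users. Trav14n-3 had 7.78 CPM in Cd8 and 31.1 CPM in Cd4 cells (-1.87).

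Treg cells of the lymph node shared some of these features with Cd8 cells and others with Cd4 cells. Trbv12-1, the most used segment of the label, was used by 38 of 275 Treg cells (13.8%, 9.97% to 18.5%), a share 8.71-fold (5.12 to 15.1) that of Cd4 cells. Trbv12-2 was used by 5.09% (ratio 3.65, 1.73 to 7.45) and Trbv29 by 4.0% (ratio 2.63, 1.16 to 5.57). For Trbv31 the Treg share of 6.91% (4.21% to 10.6%) lay nearer that of Cd4 cells, and its ratio to Cd4 was not separable from 1 (0.694, 0.407 to 1.12). Trbv17 and Trbv14, high in Cd8 cells, were used by 1.09% and 2.18% of Treg cells, with ratios to Cd4 cells of 1.15 (0.213 to 4.05) and 1.04 (0.357 to 2.52). In the receptor library Cys-Ala-Trp was found in 7.0% of Treg cells (4.13% to 11.0%) with a single beta chain.

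The 38 Treg users of Trbv12-1 all had a receptor call and 38 distinct clonotypes. Cells with Cd8a or Cd8b1 UMIs made up 84 of the 321 Treg cells. Without them Trbv12-1 was used by 33 of 198 called Treg cells (16.7%, 11.8% to 22.6%) and with them by 5 of 77 (6.49%, 2.14% to 14.5%). The high share was thus as large in Treg cells without UMIs of the CD8 chains. The Trbv12 family took 18.9% of all called Treg cells (14.5% to 24.0%) and 21.2% (15.7% to 27.6%) of those without such UMIs. For Trbv29 the split went the other way, with 3.03% (1.12% to 6.48%) of Treg cells without such UMIs, an interval that overlaps that of Cd4 cells without them (1.48%, 0.917% to 2.25%), and 6.49% (2.14% to 14.5%) of those with them. Trbv12-2 was used by 4.55% (2.10% to 8.45%) and 6.49%, and Trbv31 by 8.59% (5.08% to 13.4%) and 2.60% (0.316% to 9.07%). The intervals with and without such UMIs overlap for each of these segments.

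Over both loci 61 segments could be counted in Treg against Cd4 cells, of which 27.9% were higher and 26.2% lower. Of 20 Trbv segments 4 were higher and 3 lower, the fourth higher one being Trbv23 with 5 Treg users (1.82%, 0.593% to 4.19%) and a ratio of 1.91 (0.543 to 5.53), which was 1.16 without cells holding markers of other types or of the other coreceptor. The lower ones, Trbv13-3 (ratio 0.511, 0.227 to 1.01), Trbv4 (0.546, 0.193 to 1.26) and Trbv19 (0.593, 0.323 to 1.01), all had intervals that reach 1, and so did Trbv2 (0.688, 0.303 to 1.38), which did not reach the fold. By summed level 25.6% of 5216 genes were higher and 3.91% lower in Treg cells, with a median log2 ratio of 0.30. Of 18 Trbv segments 4 were higher and 2 lower (median -0.09), a share of higher segments close to that of all genes. Over both loci 7 of 28 members were higher and 5 lower. With TMM scaling, under which the median of all genes was -0.05, 4 of 29 were higher and 11 lower, beside 11.7% and 11.8% of all genes. Trbv12-1 stood at 119 CPM in Treg cells against 16.1 CPM in Cd4 cells (log2 ratio 2.81).

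Alpha use was divided among more segments, with users in Cd4 cells for 62 of 81 Trav and 23 of 24 Trbv segments. Because the loci differ in their number of segments, the shares of their 5 most used segments do not compare how even the use was. In Cd4 cells the 5 most used, Trav14n-3 (5.84%), Trav13-1 (4.52%), Trav4-4-dv10 (4.30%), Trav14-2 (4.19%) and Trav9-2 (3.63%), took 22.5% of 908 called cells. In Cd8 cells Trav12-2 (6.80%), Trav3-3 (4.67%), Trav13-1 (4.59%), Trav5-4 (4.18%) and Trav16n (4.10%) took 24.3% of 1220. In Treg cells Trav12-2 (9.33%), Trav10 (5.33%), Trav4-4-dv10, Trav6-7-dv9 and Trav7-4 (4.67% each) took 28.7% of 150. Users in the 3 labels were found for 68 of the 81 segments, and 13 had none. The alpha locus of the mouse carries repeated blocks whose copies bear the letters d and n in their names, and reads of near-identical copies may be split or lost between them, so the shares of single copies are uncertain and the families are given beside them.

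**Figure D2:**
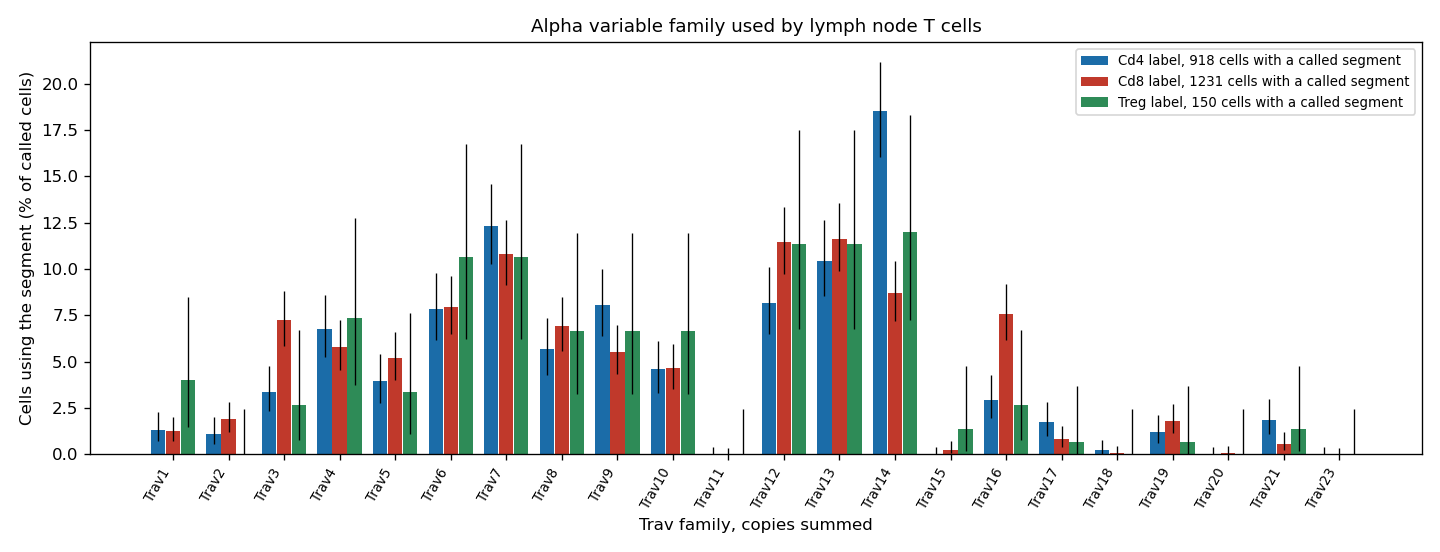
Share of lymph node cells using each Trav family (percent of cells with a called family, copies summed) for the Cd4, Cd8 and Treg labels, with exact 95% intervals for counting error. The Trav14 family is used by 18.5% of Cd4 and 8.69% of Cd8 cells, and Trav16 and Trav3 by more Cd8 than Cd4 cells.

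Of the 40 Trav segments counted in Cd8 against Cd4 cells, 10 were higher, 13 lower and 17 neither. Summed by family, 3 of 17 were higher and 3 lower. The Trav14 family was used by 170 of 918 Cd4 cells (18.5%, 16.1% to 21.2%) and 107 of 1231 Cd8 cells (8.69%, 7.18% to 10.4%), a share 2.13-fold (1.66 to 2.74) higher in Cd4 cells. Its copy Trav14d-3-dv8 had the widest gap, with 3.30% of Cd4 and 0.656% of Cd8 cells, 5.04-fold (2.26 to 12.7) higher in Cd4 cells. Trav14n-3 was 2.97-fold (1.80 to 5.03) and Trav21-dv12, the only copy of its family, 3.26-fold (1.29 to 9.31) higher in Cd4 cells. Trav17 had 1.76% of Cd4 and 0.820% of Cd8 cells, its interval (0.917 to 5.30) reached 1, and its Cd8 to Cd4 ratio of 0.465 was 0.883 at 2000 UMIs per cell. The Trav21 start Cys-Ile-Leu was found in 1.22% of Cd4 cells (0.709% to 1.94%) and 0.356% of Cd8 cells (0.143% to 0.733%) with a single alpha chain.

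In Cd8 cells the Trav16 family took 7.55% (6.14% to 9.18%) against 2.94% of Cd4 cells (1.95% to 4.25%), a ratio of 2.57 (1.66 to 4.10). The Trav3 family took 7.23% against 3.38%, a ratio of 2.14 (1.41 to 3.33), and Trav2, a family of 1 copy, 1.87% against 1.09%, with a ratio of 1.72 whose interval reached 1 (0.785 to 4.04). Among single copies the highest ratio was that of Trav8d-2, with 25 Cd8 and 2 Cd4 users (9.30, 2.32 to 81.0). Trav16 (2.98, 1.27 to 8.07), Trav16n (2.86, 1.53 to 5.74) and Trav13-2 (2.60, 1.02 to 7.89) followed. Trav13-2 did not reach the fold with a minimum of 1 UMI (1.26) or at 2000 UMIs per cell (1.47), and at that depth Trav16n had a ratio of 1.84 and Trav16, from 5 users, of 4.42. The receptor library held starts in the same direction: Cys-Ala-Met, the commonest start of Trav16 users, was found in 10.7% of Cd8 cells (9.36% to 12.1%) and 4.57% of Cd4 cells (3.54% to 5.80%). That start is shared by most Trav13 copies.

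In Treg against Cd4 cells 41 Trav segments were counted, with 13 higher and 13 lower. Of the higher ones only Trav12-2 and Trav15-1-dv6-1 had an interval of the ratio clear of 1, and none of the lower ones did. Trav12-2 was used by 14 of 150 Treg cells (9.33%, 5.20% to 15.2%) and 2.86% of Cd4 cells, a ratio of 3.26 (1.57 to 6.48). It was also higher in Cd8 cells (ratio 2.38, 1.51 to 3.85). The other segments that stood highest rested on few Treg cells: Trav6d-4 and Trav15-1-dv6-1 on 2 each, with no Cd4 user of the latter, and Trav5-1 on 4 (ratio 3.46, 0.743 to 13.6). Among the lowest, Trav12-1, Trav2 and Trav7-6 had no Treg user, against 18, 10 and 16 Cd4 users, and Trav5-4 had 1 (0.667%, 0.0169% to 3.66%) against 29. A count of 0 of 150 allows a share of up to 2.43% by the exact interval, above each Cd4 share of these 3.

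Among the segments of invariant T cells, Trav1 had users and Trav11n had none. Trav1, the alpha segment of mucosal-associated invariant T cells, had 141 UMIs in 54 lymph node cells and 33 users, 1.32% of Cd4, 1.23% of Cd8 and 4.0% of Treg cells (1.48% to 8.50%). Its Treg share, from 6 cells, was 3.03-fold that of Cd4 cells and counted as higher, with an interval (0.932 to 8.71) that reached 1. UMIs of Zbtb16, a listed marker of such invariant cells, were seen in 0 of the 33 Trav1 users and in 0% of the users of other segments. Whether any Trav1 user was an invariant T cell was not tested. Trav11 and Trav11d, used by invariant natural killer T cells, are not rows of the table, and their copy Trav11n had 9 UMIs in 6 cells and no user.

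Both segments could be called in 42.6% of Cd4, 39.5% of Cd8 and 42.1% of Treg cells. The 798 such Cd4 cells held 472 different pairs of an alpha and a beta segment, the 1101 Cd8 cells 577 and the 135 Treg cells 122. The commonest pairs were Trav4-4-dv10 with Trbv3 in 9 Cd4 cells, Trav12-2 with Trbv13-2 in 14 Cd8 cells and Trav1 with Trbv12-1 in 3 Treg cells.

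Many lymph node cells held 2 segments of a locus. With 2 or more UMIs required of each, 2 Trbv segments were found in 13.1% of Cd4 (11.6% to 14.7%), 16.8% of Cd8 (15.4% to 18.2%) and 23.1% of Treg cells (18.6% to 28.1%). For Trav the shares were 8.97%, 6.21% and 9.03%. Among cells with a receptor call, those with 2 Trbv segments were deeper than those with UMIs of a single segment in each label, with medians of 5053 against 4765 UMIs in Cd4, 7058 against 6240 in Cd8 and 8454.5 against 4908 in Treg cells. For Trav the medians were 5176 against 4822, 7178 against 6377 and 7298 against 5205. The Trav share was lowest in Cd8 cells, the deepest label. With 1 UMI of each taken as enough, the Trbv shares were 31.6% of Cd4, 35.8% of Cd8 and 35.2% of Treg cells. Among cells thinned to 2000 UMIs they lay close together, with 17.0%, 16.4% and 17.8% in that order. The Trav share after such thinning stayed lowest in Cd8 cells, with 11.2% of Cd4, 6.55% of Cd8 and 9.71% of Treg cells. Whether depth makes the Trbv gaps at 2 or more UMIs was not tested. In the receptor annotation 34.5% of the 756 cells with 2 Trbv segments (31.1% to 38.0%) had 2 beta chains, against 0.586% of the 2902 cells with UMIs of 1 segment. By label it was 27.8% of 237 Cd4 cells (22.2% to 34.0%) and 34.3% of 449 Cd8 cells (29.9% to 38.9%). In Treg cells it was higher, 58.6% of 70 (46.2% to 70.2%). With 2 or more UMIs of each and every cell thinned to 2000 UMIs, 2 Trbv segments were found in 3.48% of lymph node cells. For 2 Trav segments the share was 0.982%, against 15.8% and 7.44% at full depth. For alpha chains the shares with 2 chains were 41.0% of 356 and 9.48% of 1994 cells. Whether cells captured in pairs make up part of these shares was not tested.

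Where the second beta segment lay was not even along the locus. This pattern was noticed after the values were seen. Trbv13-2 UMIs were found in 26.5% of 1863 users of a segment downstream of it, leaving Trbv31 aside (24.5% to 28.6%), and in 5.53% of 1699 users of a segment upstream (4.49% to 6.73%). The share was highest in users of the next 2 segments, Trbv13-3 (52.4%, 143 of 273 cells) and Trbv14 (51.3%, 79 of 154). It was lower in users of Trbv15 (32.1%), Trbv16 (23.8%), Trbv17 (28.0%), Trbv19 (22.8%) and Trbv20 (17.5%), and lowest in those of Trbv23 (9.38%), Trbv26 (6.67%) and Trbv29 (3.93%). By start positions these lie 8.751 kb (Trbv13-3) to 150.007 kb (Trbv29) from Trbv13-2. Trbv31, which lies at the far end of the locus and is joined by inversion, had 4.6% among 239 users.

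The pattern was alike in each label, with 26.9% of Cd4, 26.5% of Cd8 and 24.3% of Treg cells among downstream users and 5.61%, 5.70% and 3.97% among upstream users. At an equal depth of 2000 UMIs per cell the shares were 12.6% and 2.49%, and with 2 or more Trbv13-2 UMIs required 9.29% and 1.41%. Trbv12-2, the segment just before Trbv13-2, showed a smaller difference of the same direction, 10.7% of 2343 downstream users and 2.18% of 1514 upstream users, with 24.0% in users of Trbv13-2. With Trbv13-2, Trbv12-2 and Trbv31 left aside, 10.6% of users had UMIs of some segment upstream of theirs and 11.6% of some segment downstream. For Trav the shares over all segments were 23.9% upstream and 19.6% downstream.

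**Figure D3:**
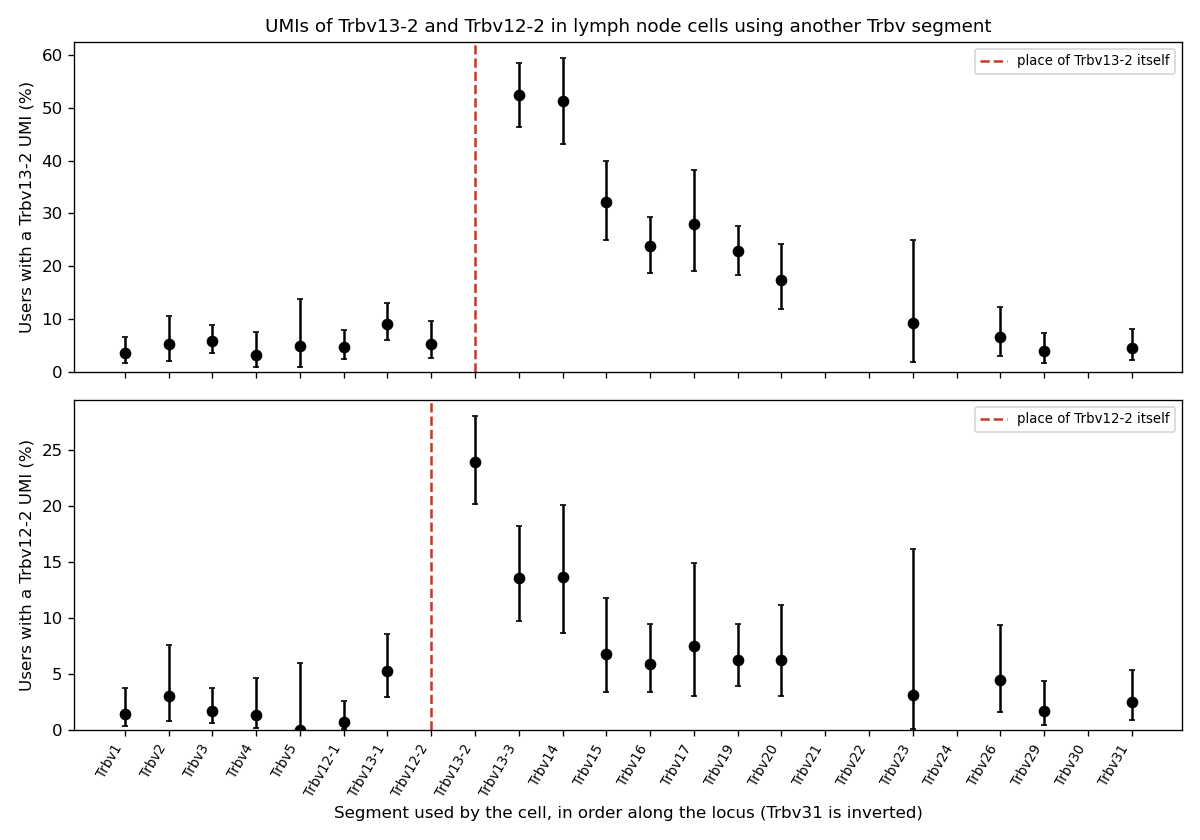
Share of lymph node cells with at least 1 UMI of Trbv13-2 (top) or Trbv12-2 (bottom) by the Trbv segment the cell uses, in order along the locus. Points are shares and lines exact 95% intervals. Trbv21, Trbv22, Trbv24 and Trbv30, with 1, 1, 8 and 13 users, are left out. For Trbv13-2 the share is 52.4% and 51.3% in users of the next 2 segments, and 3.93% in users of Trbv29.

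In the tumor nearly all variable segment UMIs were those of Trbv31. Trbv31 was found in 5545 of 5570 cells (99.6%, 99.3% to 99.7%) and was the used segment of every tumor cell in which a beta segment could be called among the Tdp, Cd4, Tcell and Treg labels. It had a median of 173 UMIs per cell (5th percentile 24, 95th percentile 385.55). The median was 194 in Tdp, 171 in Cd4, 23 in Tcell and 82 in Treg cells. Lymph node users of Trbv31 had a median of 6 UMIs (2 to 16 by the same percentiles), in Cd4 and Cd8 users alike, and 8 in the 19 Treg users. Trbv31 made up 3.12% of all tumor UMIs against 0.135% of those of its lymph node users. At 2000 UMIs per cell the medians were 59 in tumor and 2 in lymph node. Tissue, activation and transgene cannot be told apart in this comparison.

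**Figure D4:**
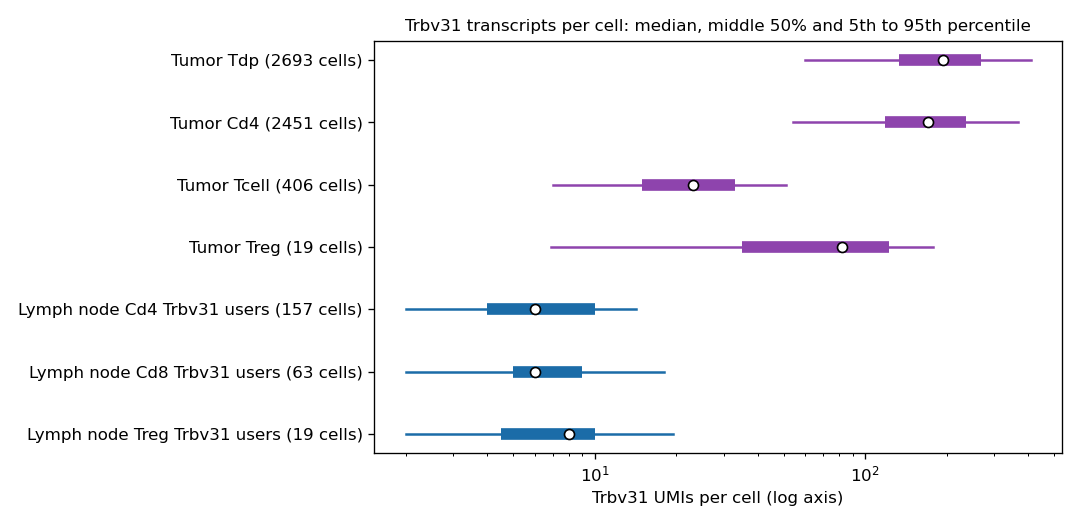
Trbv31 UMIs per cell on a log axis in tumor cells by label and in the lymph node cells that use Trbv31; circles are medians, thick bars the middle 50% of cells and thin lines the 5th to 95th percentile. Tumor Tdp and Cd4 cells have medians of 194 and 171 UMIs and lymph node users of 6 to 8.

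Of the constant genes Trbc2, Trac and Trdc were higher in tumor than in lymph node, and Trbc1 was not. Trbc2, a constant gene of the beta chain, had 2179 CPM in tumor Tdp and 2363 in tumor Cd4 cells against 169 to 213 in the lymph node labels. Trac, that of the alpha chain, had 759 and 754 CPM against 222 to 308. Trdc, the constant gene of the delta chain, whose locus lies inside the alpha locus, had 140 and 114 CPM in tumor and 1.58 to 2.33 in lymph node. Trbc1, the other beta constant gene, had 60.6 CPM in tumor Tdp and 111 in tumor Cd4 cells against 78.9 to 108 in lymph node. Of the gamma constant genes Tcrg-C1 had 0.164 and 0 CPM in these tumor labels and 0.556 to 7.35 in lymph node, and Tcrg-C4 had 9.10 and 0.644 against 0 to 1.05. The list of other receptor genes, with constant, delta and gamma segments, CD3 chains and recombination genes, had 23 entries, 20 of them in the table. In Cd8 against Cd4 lymph node cells 7 could be counted, with Cd247, a signalling chain, lower, and in Treg against Cd4 cells none of 7 passed the fold. In tumor Tdp against Cd4 cells 9 could be counted, with Trdv2-2, a delta segment, higher and Trbc1 and Cd247 lower.

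Tdp and Cd4 cells of the tumor, which share a receptor, differed little in Trbv31. On the summed scale 2.90% of 4826 genes were higher and 6.49% lower in Tdp cells by 1.5-fold. The 2 members at 20 CPM or more were Trbv31, at 30955 and 32733 CPM (log2 ratio -0.08), and Trbv13-1, at 18.4 and 36.4 CPM (-0.95), which counted as lower. All genes had a median log2 ratio of -0.11, and of 0.01 with TMM scaling, under which Trbv13-1 still counted as lower. No Trav segment reached the minimum.

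UMIs of a Trbv segment other than Trbv31 were found in 770 tumor cells (13.8%, 12.9% to 14.8%), and in 747 of these the segment was Trbv13-1. Most had a single such UMI: 654 cells had 1 UMI of Trbv13-1, 77 had 2 and 16 had 3 or 4. The share with another Trbv segment was 5.42% at 2000 UMIs per cell and 1.74% when 2 such UMIs were required. In lymph node cells that used another Trbv segment, a Trbv13-1 UMI was found in 1.75% of 3997 cells. The remaining Trbv segments were Trbv13-2 in 16 tumor cells, Trbv12-2 in 9 and Trbv1 in 2, and 19 were listed at 0. Together the segments beside Trbv31 and Trbv13-1 were found in 25 cells (0.449%, 0.291% to 0.662%). The segments listed at 0 may hide rare cells, which this share and its interval would miss. No single-chain tumor cell of the Tdp and Cd4 labels had a beta CDR3 start other than Cys-Ala-Trp.

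Trbv13-1 was found in 17.7% of tumor Cd4 cells (16.2% to 19.2%) and 11.2% of Tdp cells (10.0% to 12.4%). Tdp cells had more UMIs per cell in the same library, with a median of 6633 against 5533. Per 10000 Trbv31 UMIs there were 11.1 Trbv13-1 UMIs in Cd4 cells (10.2 to 12.1) and 5.93 in Tdp cells (5.31 to 6.60). Tcell-labelled cells, with less RNA, had 13.3 (7.26 to 22.3) from 14 UMIs, and the 19 Treg cells none. The share of cells was larger where Trbv31 UMIs and depth were higher. Over 4 equal parts of the tumor cells by Trbv31 UMIs it went from 6.24% at a median of 3435 UMIs per cell to 20.1% at 7885. In each part it was higher in Cd4 than in Tdp cells, 9.25% against 5.58% in the lowest and 27.7% against 15.2% in the highest. Trbc1 differed in the same direction, with 111 CPM in Cd4 and 60.6 in Tdp cells. Of the tumor cells whose barcode also occurs in the lymph node library 5 of 36 (13.9%) had another Trbv segment, against 13.8% of the rest, and in 0 of the 36 was it the segment of the lymph node cell.

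**Figure D5:**
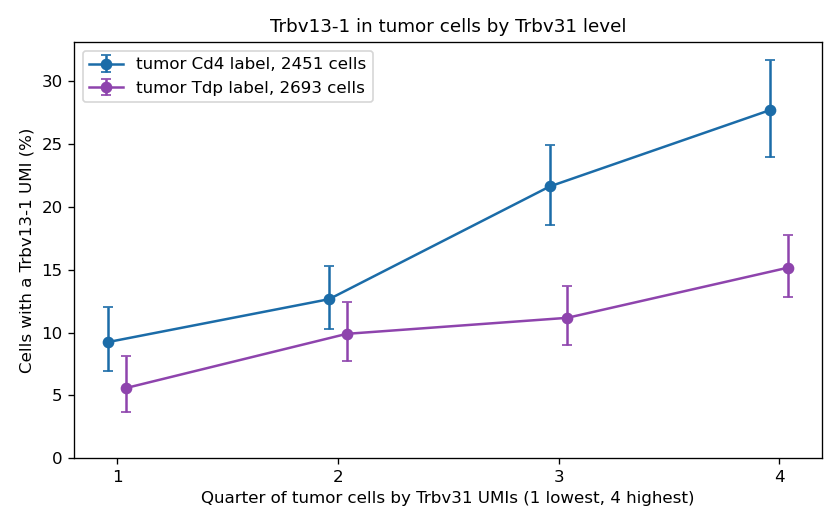
Share of tumor cells with at least 1 UMI of Trbv13-1 in 4 equal parts of all tumor cells by Trbv31 UMIs, for the Cd4 and Tdp labels, with exact 95% intervals. Both are larger at higher Trbv31, from 9.25% to 27.7% in Cd4 and from 5.58% to 15.2% in Tdp cells.

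Alpha segments were scarce in the tumor RNA library. Any Trav UMI was found in 14.7% of Tdp cells (13.4% to 16.1%), 8.20% of Cd4 cells (7.14% to 9.36%) and 2.22% of Tcell cells, against 69.0% to 72.9% of the lymph node labels. The Trav segment with the most tumor UMIs, which the rule took as the transgenic one, was Trav9-4, with 294 UMIs in 284 cells (5.10%, 4.54% to 5.71%). Copies of its family followed: Trav9d-3 in 146 cells, Trav9n-3 in 62, Trav9d-2 in 36 and Trav9-2 in 22. Trav9d-3, Trav9n-3 and Trav9d-2 were listed at 0 in lymph node. The Trav9 family as a whole was found in 539 cells (9.68%, 8.91% to 10.5%), in 13.4% of Tdp cells (12.2% to 14.8%) and 6.98% of Cd4 cells (6.00% to 8.06%), and no cell had more than 2 UMIs of it. Per 10000 Trbv31 UMIs it had 7.08 UMIs in Tdp cells (6.41 to 7.81) and 3.92 in Cd4 cells (3.36 to 4.53), the reverse of the order of Trbv13-1. Trac was found in 97.3% of Tdp and 94.9% of Cd4 cells, so RNA with the alpha constant gene was seen in nearly all of them. In the receptor library a single alpha chain was found in 2646 of 2693 Tdp and 2283 of 2451 Cd4 cells. RNA of a rearranged alpha chain was thus seen in most of them. Whether the Trac UMIs came from that RNA was not tested. How far reads are split or lost between the near-identical Trav9 copies was not tested.

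Trav segments other than Trav9-4 were found in 350 tumor cells (6.28%, 5.66% to 6.95%). Outside the Trav9 family they were found in 74 cells (1.33%, 1.04% to 1.67%), not counting any rare cells of segments listed at 0. The commonest of these was Trav3-4, in 46 cells (0.826%, 0.605% to 1.10%), with 0.928% of Tdp and 0.775% of Cd4 cells and intervals that overlap. In lymph node Trav3-4 was found in 24 cells (0.481%), of which 18 used it. In lymph node cells that used another Trav segment, a Trav3-4 UMI was found in 2 of 2260 (0.0885%). Free RNA was not measured, so whether the few UMIs of other alpha segments in tumor cells came from it was not tested.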

How the data were processed

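Cells were prepared with 10x Genomics 5′ v2 chemistry, per the labels' protocols, and processed with Cell Ranger 3.1.0 against mm10, per the submitters' processing notes. The authors deposited whole-number UMI counts per gene and cell for both tissues in 1 table, and an annotation with other values (library, cell label, clonotype and CDR3). How the authors filtered cells and genes, set the cell labels and counted reads of near-identical segments is not given in these sources. No per-sample column was left out (0).

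The used segment of a cell was its top segment with 2 or more UMIs. Shares carry exact Clopper-Pearson and ratios exact conditional 95% intervals. Levels were summed UMIs scaled to the total of the label (CPM); groups were compared at 1.5-fold of CPM plus 1 among genes with 20 CPM or more. Cells were thinned to 2000 UMIs for comparisons at equal depth. No doublets were removed. Scripts used Python 3.11.15, numpy 2.4.6, scipy 1.17.1 and edgeR 4.0.16 (TMM factors only), and were tested on simulated data. With 1 library per tissue no test was run and no p-value computed.

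Named segments were, per lymph node label and locus, the 5 most used, and per comparison the 4 highest and 4 lowest ratios. In tumor they were the transgenic segments with the 5 other Trav and 5 other Trbv segments in most cells, and Trav1, Trav11 and Trav11d were always named. Trbv14, Trbv3, Trav3-3 and the Trbv13-2 pattern were described after their values were seen. The members and lists were chosen with earlier results of these data known. No segment sequences are printed, since the reference tables used here matched 0 of the members.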

Additional observations from a re-analysis of the deposited data

How the results depend on the processing

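Each alternative changed a single choice. Of 168 ratios of named segments, 166 stayed within the interval of the reported value and none crossed 1, but that does not keep every call. The exceptions were Trav5-4 in Treg against Cd4 cells with a minimum of 3 UMIs and at 2000 UMIs per cell, where no Treg user was left (0). In Cd8 against Cd4 cells the 1.5-fold call was lost for Trav13-2 (2.60) with a minimum of 1 UMI (1.26) and at 2000 UMIs (1.47), and for Trav17 (0.465) with 0.667 and 0.883. In Treg against Cd4 cells it was lost for Trav7-6 (0) at 1 UMI (0.680), for Trbv19 (0.593) at 2000 UMIs (0.685) and for Trbv23 (1.91) without cells holding other markers (1.16), and Trbv2 (0.688) reached it at 2000 UMIs (0.480). Counts and shares moved more, 26 of 80 counts by over 1.5 times and 18 of 32 shares beyond their interval, and the cause was not tested.

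With a fold of 2 in place of 1.5, in Cd8 against Cd4 cells 3 Trbv segments were lower in place of 5, and 6 Trav segments higher and 5 lower in place of 10 and 13. In Treg against Cd4 cells 0 Trbv segments were lower in place of 3, and 8 Trav segments higher and 8 lower in place of 13 each. Summed by family, the Trav counts were 3 higher and 3 lower in Cd8 cells and 2 and 4 in Treg cells. At 2000 UMIs per cell 8 Trav segments were lower in Cd8 cells and 6 Trbv segments lower in Treg cells. A minimum of 1 UMI gave 8 higher Trav segments in Treg cells. Without cells holding markers of other types or of the other coreceptor, 5 Trbv segments were lower in Treg cells.

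By summed level, 5 members were higher and 12 lower in Cd8 cells, 7 and 5 in Treg cells, and 0 and 1 in tumor Tdp cells. Without a CPM minimum, which lets in all 105 members, the counts were 9 and 45, 16 and 25, and 2 and 2. The counts in Cd8 cells include the lower level of all Trav UMIs together, 0.0356% of UMIs against 0.0541% in Cd4 cells. TMM scaling gave 4 and 11 in Treg cells. Leaving receptor, ribosomal protein and mitochondrial genes out of the total, which raises every CPM and so the number of members counted, gave 24 lower in Cd8 and 15 lower in Treg cells. A fold of 2 gave 4 higher in Treg cells and 0 lower in Tdp cells.

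Of tumor cells, 13.8% had another Trbv segment, 1.74% with 2 UMIs required and 5.42% at 2000 UMIs. For Trav the share was 6.28%, then 0.395%, 2.26% and, with other copies of the Trav9 family not counted, 1.33%. Of lymph node cells, 15.8% had 2 Trbv segments, with 34.1% at a minimum of 1 UMI, 8.82% at 3 UMIs, 3.48% at 2000 UMIs and 14.4% by family. For 2 Trav segments the share was 7.44%, then 24.9%, 3.17% and 0.982%. Trbv13-2 UMIs in downstream and upstream users, whose alternatives were chosen after seeing the data, were 26.5% and 5.53%, with 9.29% and 1.41% at 2 UMIs, 12.6% and 2.49% at 2000 UMIs and 24.3% and 3.97% in the Treg label.

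No paired analysis was possible because each tissue had 1 RNA library and the labels were compared within it. Depth limits the alpha segments most, with a median of 3 UMIs per called cell. The 321 Treg cells leave wide intervals.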
